A study of Antheraea pernyi with 6 samples.

Results

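A cluster of neighbouring cuticle protein genes of the Chinese oak silkmoth, Antheraea pernyi, was followed in antennal mRNA. Its genes carry the consecutive identifiers GWHGABGR004571, GWHGABGR004572, GWHGABGR004573, GWHGABGR004574 and GWHGABGR004575, and make up 5 of the 16458 genes in the deposited table. The first has a cuticle protein 8-like best hit (from the butterfly Bicyclus anynana), and the other 4 a cuticle protein 7-like one (from the moth Spodoptera litura). The genes were chosen by their FPKM in these same 6 libraries, as neighbours of like name nearly absent under one label, so the difference between labels in these genes is a description and was given no test.

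The study measured antennae of adult moths in 6 libraries, 3 labelled female and 3 labelled male, with no treatment named for either. No strain, age or time after emergence is given, and nothing says that libraries of a label came from separate animals, so p-values measure only the spread between these libraries. Per the labels' protocols, Trizol was used to take RNA and a stranded mRNA kit to build the libraries. In bulk tissue, fewer cells of a type and less RNA per cell cannot be told apart.

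Insect cuticle is built from chitin fibres and proteins that epidermal cells secrete. Many of these proteins bind chitin through the Rebers and Riddiford motif, whose RR-1 form is known mostly from soft cuticle and whose RR-2 form mostly from hard cuticle. In insects the genes of this family often lie in tandem arrays, and close copies can be hard to tell apart by short reads. On an antenna, cuticle forms the shaft, the branches and the hairs (sensilla) that hold the olfactory neurons.

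The libraries had the make-up of an olfactory antenna, but genes with a known sex bias did not all go the way of the labels. Orco, the shared coreceptor of odorant receptors (GWHGABGR013501, listed as putative chemosensory receptor 2), stood at 465 ± 5.9 FPKM in the female-labelled and 176 ± 1.58 FPKM in the male-labelled libraries (SD, n = 3 each). FPKM is a read count scaled to gene length and library total. Pheromone-binding protein 1 (GWHGABGR012196), a carrier of sex pheromone that is male-biased in many moths, stood at 92516 ± 2089 FPKM in the female-labelled and 1273 ± 90.6 FPKM in the male-labelled libraries. The gene with a female-specific doublesex best hit (GWHGABGR017605) had 0 reads in the female-labelled and 16 in the male-labelled libraries, and vitellogenin (GWHGABGR020830), a yolk protein, had 0 in the female-labelled and 29 in the male-labelled ones. Both genes with a male-specific doublesex best hit had more reads under the male label, at 3 reads in female-labelled and 8 in male-labelled libraries for GWHGABGR017603, and 6 reads in female-labelled and 13 in male-labelled libraries for GWHGABGR017606, with overlapping values. These doublesex genes have close identifiers, and a best-hit name does not show which sex's form their reads came from. Exchanged labels and a true sex difference cannot be told apart, so every direction here is one between labels.

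In the female-labelled libraries the 5 genes were well expressed, and in the male-labelled ones they were close to the limit of detection. Summed over the 5 genes, the level was 1262, 1217 and 1258 FPKM in female-labelled replicates 1, 2 and 3, against 5.19, 6.36 and 5.16 FPKM in the male-labelled replicates. The labels did not overlap, and libraries of one label lay close together. FPKM values rise in steps of 1 read, which allowed whole reads to be recovered, 19955 of them for the 5 genes in female-labelled and 77 in male-labelled libraries. Corrected for library totals, that is a ratio of 223 (exact 95% interval 178 to 283, which covers counting error only). Male-labelled replicates 1, 2 and 3 held 24, 29 and 24 of the 77 reads, so no single library supplied them. By level among all 16458 genes, the 5 ranked between 412 and 1560 in female-labelled replicate 1, and between 8712 and 13870 in male-labelled replicate 1.

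The most abundant of the 5 was GWHGABGR004575, a cuticle protein 7-like gene. It stood at 434, 398 and 384 FPKM in the female-labelled libraries, against 1.51, 3.39 and 2.15 FPKM in the male-labelled ones. Its 6595 reads in the female-labelled and 33 in the male-labelled libraries gave a ratio of 172 (exact 95% interval 122 to 250). All 3 male-labelled libraries held some of its reads, and their sum was the highest of the 5 there.

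GWHGABGR004572, also cuticle protein 7-like, stood at 319, 336 and 344 FPKM in the female-labelled libraries, against 2.38, 0.635 and 1.72 FPKM in the male-labelled ones. It had 5419 reads in the female-labelled and 22 in the male-labelled libraries, a ratio of 212 (exact 95% interval 140 to 338). Here too every male-labelled library held reads, with replicate 2 lowest at 3 reads.

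GWHGABGR004573, a further cuticle protein 7-like gene, was read in a single male-labelled library. Its levels were 230, 229 and 244 FPKM in the female-labelled libraries, against 0, 0 and 1.08 FPKM in the male-labelled ones. All 5 of its male-labelled reads lay in replicate 3, beside 3809 in the female-labelled libraries, a ratio of 656 (exact 95% interval 281 to 2020). With 0 reads, male-labelled replicates 1 and 2 allow levels of up to 0.649 and 0.635 FPKM, from a floor of 3 reads per library.

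GWHGABGR004574, the last of the cuticle protein 7-like genes by level, stood at 210, 189 and 206 FPKM in the female-labelled libraries, against 1.3, 1.48 and 0.215 FPKM in the male-labelled ones. It had 3276 reads in the female-labelled and 14 in the male-labelled libraries, a ratio of 201 (exact 95% interval 120 to 369). A single read stood behind its value in male-labelled replicate 3.

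GWHGABGR004571, the cuticle protein 8-like gene, was the lowest of the 5. Its levels were 69.9, 63.8 and 80.5 FPKM in the female-labelled libraries, against 0, 0.86 and 0 FPKM in the male-labelled ones. Its 856 reads in the female-labelled and 3 in the male-labelled libraries, all 3 in replicate 2, gave a ratio of 246 (exact 95% interval 83.7 to 1193). At so few reads the ratio is only loosely known.

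For each of the 5 genes, every female-labelled library stood above every male-labelled one, as it did for 12.1% of the 11590 genes tested, while 50.1% had no overlap in either direction. That separation is what chose them. On the log2(FPKM + 1) scale used for the test of all genes, the differences were 5.87, 7.08, 7.53, 6.73 and 6.96 for GWHGABGR004571 to GWHGABGR004575 in order of identifier. They ranked 9, 5, 3, 7 and 6 among all tested genes, from the highest difference down. This scale understates the change of genes near 0, and on the scale of reads the 5 ratios came to 7.94, 7.73, 9.36, 7.65 and 7.43 in log2. With 3 to 33 male-labelled reads per gene, unevenly spread over the libraries, no order of the 5 ratios is read from them.

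**Figure D1:**
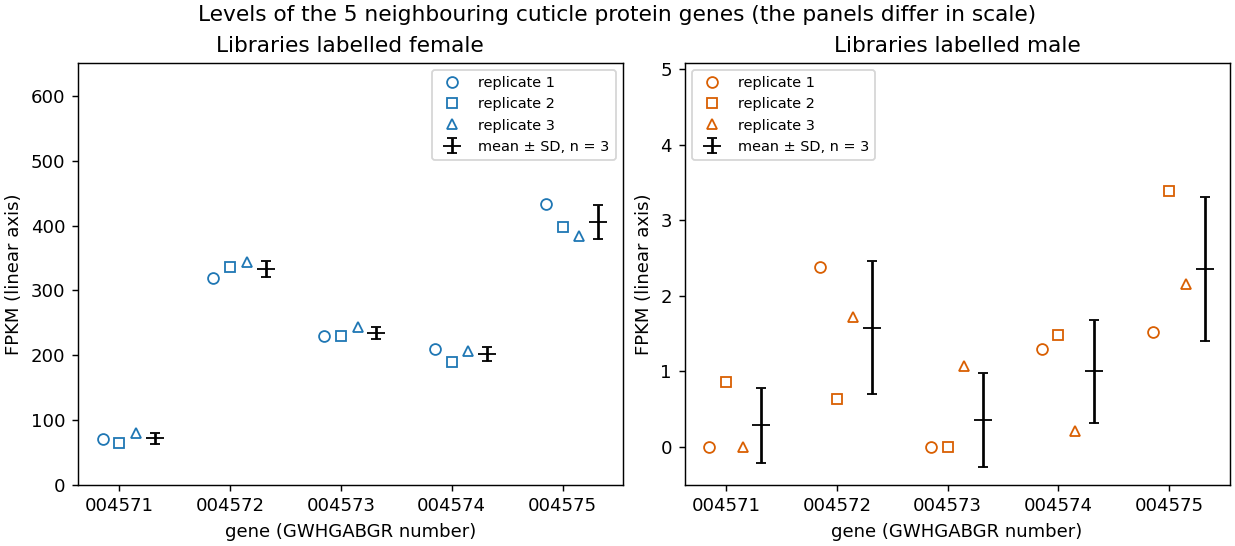
FPKM of the 5 genes in each library (open symbols, one per replicate) with mean and SD (black, n = 3), on linear axes that differ in scale between the panels. The female-labelled values lie between 63.8 and 434 FPKM and the male-labelled values between 0 and 3.39 FPKM.

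The order of the 5 levels, which played no part in choosing the genes, was the same in all 3 female-labelled libraries. FPKM is per length, so levels can be compared between genes. GWHGABGR004575 exceeded GWHGABGR004572 by 1.11 to 1.36 times across the 3 libraries, and GWHGABGR004572 exceeded GWHGABGR004573 by 1.39 to 1.47 times. GWHGABGR004573 exceeded GWHGABGR004574 by 1.1 to 1.21 times. The step down to GWHGABGR004571 was the widest, at 2.56 to 3 times. No 2 neighbours in this order had overlapping ranges across the female-labelled libraries. The spread between those libraries ran from 3.63% of the mean for GWHGABGR004573 to 11.8% for GWHGABGR004571. GWHGABGR004575 was highest in replicate 1, where GWHGABGR004572 was lowest.

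Among the male-labelled libraries the order varied, at 24 to 29 reads per library. GWHGABGR004575 took 33.0% of the reads of the 5 genes in the female-labelled libraries (exact 95% interval 32.4% to 33.7%) and 42.9% in the male-labelled ones (31.6% to 54.6%). GWHGABGR004573 took 19.1% in the female-labelled libraries (18.5% to 19.6%) and 6.49% in the male-labelled ones (2.14% to 14.5%). All 5 male-labelled reads of GWHGABGR004573 lay in replicate 3, so that its share of the summed FPKM of the 5 genes was 18.2% to 19.4% in the single female-labelled libraries, against 0%, 0% and 20.8% in the male-labelled ones. With 77 reads in all, no difference in make-up can be read from these shares.

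All 5 genes carry the gene ontology term for a structural constituent of cuticle, which goes with the names they were chosen for, and none has a gene symbol or a pathway in the deposited table. Their lengths played no part in the choice. The 4 cuticle protein 7-like genes all had a recovered length of 492 bases, or 164 codons, while GWHGABGR004571 had 363 bases, or 121 codons. Of the 11340 genes with more than 30 reads, 19 had 492 bases (0.168%), these 4 included. None of the 91 other cuticle protein genes with that many reads had it, and their median was 573 bases. Genes of one length and one best hit may be near-identical copies, among which the authors' counting could have split or dropped shared reads, so the levels of single copies are less certain than their sum.

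The 5 genes lie inside a longer run of cuticle genes. Between GWHGABGR004544 and GWHGABGR004580, all 30 genes listed had a cuticle best hit or the cuticle term. In that range, 7 identifiers have no values in the deposited data. Of the 25 others in the run, 18 were tested, and the limma test called 14 of them higher and 2 lower under the female label, while 2 did not pass an adjusted p of 0.05. Across all 11590 genes tested, 36.9% passed, with 9.03% higher and 27.8% lower in the female-labelled libraries. Median-of-ratios rescaling, which sets the libraries to one typical gene ratio, left 32% passing, with 17.7% higher and 14.3% lower, and gave 14 higher and 1 lower among the 18. The bounds of this run were set after values had been seen. The median difference of the 18 was 1.19 on the log2(FPKM + 1) scale, against -0.23 for all genes tested.

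The closest genes outside the 5 were cuticle genes too, and each tested one was also higher in the female-labelled libraries. On the side of higher identifiers, GWHGABGR004576, a cuticle protein-like gene, stood at 17.4 ± 0.84 FPKM in the female-labelled and 0.802 ± 0.426 FPKM in the male-labelled libraries (SD, n = 3 each; log2 difference 3.38, SE 0.20, limma adjusted p = 3.87e-06). After it, the putative cuticle protein gene GWHGABGR004577 stood at 269 ± 8.15 FPKM in female-labelled and 52.6 ± 12.7 FPKM in male-labelled libraries (limma adjusted p = 4.19e-06), a level like that of the 5 genes in the female-labelled libraries, but with 863 reads in the male-labelled ones. On the side of lower identifiers, GWHGABGR004570, with an uncharacterized best hit, had 1 read in the female-labelled and 0 in the male-labelled libraries and was not tested. GWHGABGR004569, a cuticle protein-like gene, had 31 reads in the female-labelled and 1 in the male-labelled libraries (limma adjusted p = 0.000865).

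GWHGABGR004568 shares the cuticle protein 7-like name and nearly the length of those 4 genes, at 501 bases. It stood at 177 ± 3.28 FPKM in the female-labelled and 61.4 ± 5.78 FPKM in the male-labelled libraries (SD, n = 3 each; log2 difference 1.51, SE 0.07, limma adjusted p = 9.26e-07). This gene of the same name, 3 identifiers from GWHGABGR004571, had 2925 reads in the female-labelled and 875 reads in the male-labelled libraries. There were 5 further genes outside the group with a cuticle protein 7 or 8 name, all within the identifiers GWHGABGR004523 to GWHGABGR004554. Of these, GWHGABGR004553 (31.1 ± 1.59 FPKM in female-labelled and 9.67 ± 2.76 FPKM in male-labelled libraries, limma adjusted p = 0.000246) and GWHGABGR004523 (3.43 ± 0.674 FPKM in female-labelled and 1.78 ± 0.254 FPKM in male-labelled libraries, limma adjusted p = 0.0289) passed the test. GWHGABGR004530 did not pass (6.58 ± 3.76 FPKM in female-labelled and 2.78 ± 0.952 FPKM in male-labelled libraries, limma adjusted p = 0.0597, or 0.0323 after rescaling), and GWHGABGR004525 and GWHGABGR004554 had at most 2 reads in all.

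Among the tested genes within 10 identifiers of the group, 10 of 14 were higher in the female-labelled libraries and 3 were lower, or 11 and 1 after rescaling. That is 71.4% higher and 21.4% lower, beside 9.03% and 27.8% of all genes tested (17.7% and 14.3% after rescaling). All of the 14 but GWHGABGR004583, GWHGABGR004584 and GWHGABGR004585 were also counted in the run above. GWHGABGR004562, with an RR-2 motif best hit, stood at 20.5 ± 4.84 FPKM in female-labelled and 1.69 ± 0.929 FPKM in male-labelled libraries (log2 difference 3.03, limma adjusted p = 5.17e-05). GWHGABGR004566, a cuticle protein 19-like gene, stood at 89.7 ± 17.7 FPKM in female-labelled and 16.7 ± 2.13 FPKM in male-labelled libraries (limma adjusted p = 5.62e-06). Smaller differences in that direction were those of GWHGABGR004564 (log2 difference 0.84), GWHGABGR004578 (1.09) and GWHGABGR004580 (1.64). In the other direction, the RR-2 gene GWHGABGR004561 stood at 10.6 ± 2.33 FPKM in the female-labelled and 19.5 ± 0.514 FPKM in the male-labelled libraries (limma adjusted p = 0.0032). GWHGABGR004565, a cuticle protein 18.6-like gene, stood at 22.1 ± 2.15 FPKM in female-labelled and 29.6 ± 0.74 FPKM in male-labelled libraries (limma adjusted p = 0.00991), but rescaling took away its call (limma adjusted p = 0.25). Past the end of the run, the protease inhibitor gene GWHGABGR004584 stood at 52.5 ± 4.79 FPKM in female-labelled and 18.7 ± 3.37 FPKM in male-labelled libraries (limma adjusted p = 5.65e-05). The rho GTPase-activating protein gene GWHGABGR004583 stood at 1.79 ± 0.151 FPKM in female-labelled and 3.81 ± 1.22 FPKM in male-labelled libraries (limma adjusted p = 0.027, or 0.0831 after rescaling). GWHGABGR004585, named for dedicator of cytokinesis 3, did not pass (limma adjusted p = 0.0634, or 0.0387 after rescaling).

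**Figure D2:**
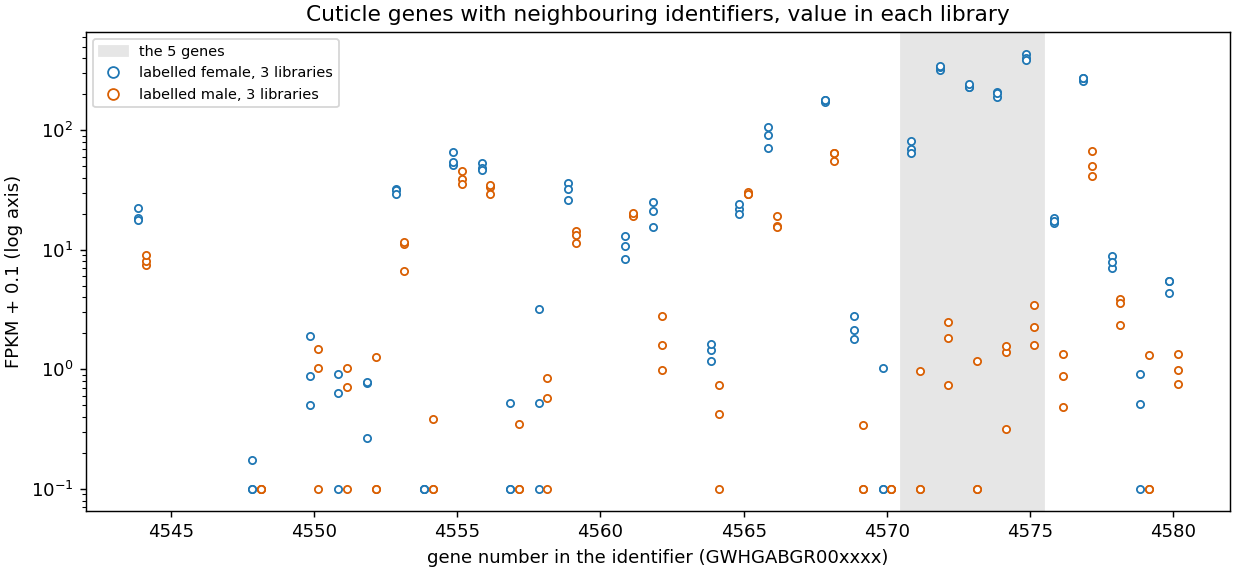
FPKM + 0.1 (log axis) in each of the 6 libraries for the 30 cuticle genes from GWHGABGR004544 to GWHGABGR004580, by gene number, with the 5 genes shaded. Blue points are female-labelled and orange points male-labelled libraries, and the gap between them is widest over the shaded genes, while GWHGABGR004561 and GWHGABGR004565 have the orange points on top.

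The other structural cuticle protein genes of the table were also more often higher than lower in the female-labelled libraries. Of 128 matched by name, 95 were tested. Of these, 57 were higher under the female label, 18 were lower and 20 did not pass, or 62 and 10 called after rescaling. That is 60% higher and 18.9% lower, beside 9.03% and 27.8% of all genes tested (17.7% and 14.3% after rescaling). The 95 include the 18 tested genes of the run, so these counts are not separate from those above. The median log2 difference of the 95 was 0.84. Summed over the 128 genes, the level was 35832 ± 866 FPKM in the female-labelled and 14254 ± 556 FPKM in the male-labelled libraries (SD, n = 3 each), a fold of 2.51, against a fold of 224 for the 5 genes. The 5 genes made up 3.31% to 3.43% of all cuticle FPKM in the female-labelled libraries and 0.037% to 0.0427% in the male-labelled ones.

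The most abundant cuticle genes were not nearly absent under either label. GWHGABGR002484, cuticle protein 1-like, stood at 6339 ± 122 FPKM in the female-labelled and 1998 ± 77.4 FPKM in the male-labelled libraries, and GWHGABGR002483, of the same name, at 4954 ± 177 FPKM in female-labelled and 2763 ± 153 FPKM in male-labelled libraries. GWHGABGR015900, a cuticular protein hypothetical 30 gene, stood at 6205 ± 185 FPKM in female-labelled and 1348 ± 57.8 FPKM in male-labelled libraries. Among the 115 other cuticle genes with any male-labelled reads, the highest fold of mean FPKM was 33.8, in the pupal cuticle protein 36-like gene GWHGABGR012307 (27.7 ± 3.49 FPKM in female-labelled and 0.822 ± 0.509 FPKM in male-labelled libraries, limma adjusted p = 1.94e-06). Larval/pupal rigid cuticle protein 66 (GWHGABGR004284) had 77 reads in the female-labelled and 0 in the male-labelled libraries. Female-labelled replicates 1, 2 and 3 held 12, 56 and 9 of them. Taking 3 reads for the male-labelled group as the limit, it was at least 22.1-fold higher by summed reads, a bound that rests mostly on female-labelled replicate 2. The endocuticle genes GWHGABGR004496 (289 ± 20.7 FPKM in female-labelled and 17.9 ± 5 FPKM in male-labelled libraries) and GWHGABGR004497 (473 ± 15.9 FPKM in female-labelled and 43.6 ± 4.11 FPKM in male-labelled libraries) had female-labelled levels like those of the 5 genes and larger male-labelled ones.

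Some cuticle genes were lower in the female-labelled libraries. GWHGABGR004501, a putative cuticle protein gene, stood at 7.39 ± 0.753 FPKM in female-labelled and 61.9 ± 4.58 FPKM in male-labelled libraries (log2 difference -2.91, limma adjusted p = 1.39e-07). Cuticle protein 13 (GWHGABGR004503) stood at 1.03 ± 0.0153 FPKM in female-labelled and 5.85 ± 1.51 FPKM in male-labelled libraries. It had 4 reads in each female-labelled library, so that small SD is no measure of precision, and 14, 21 and 24 reads in the male-labelled ones. GWHGABGR012304, cuticle protein 2-like, stood at 4.64 ± 0.391 FPKM in female-labelled and 16.7 ± 2.47 FPKM in male-labelled libraries.

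**Figure D3:**
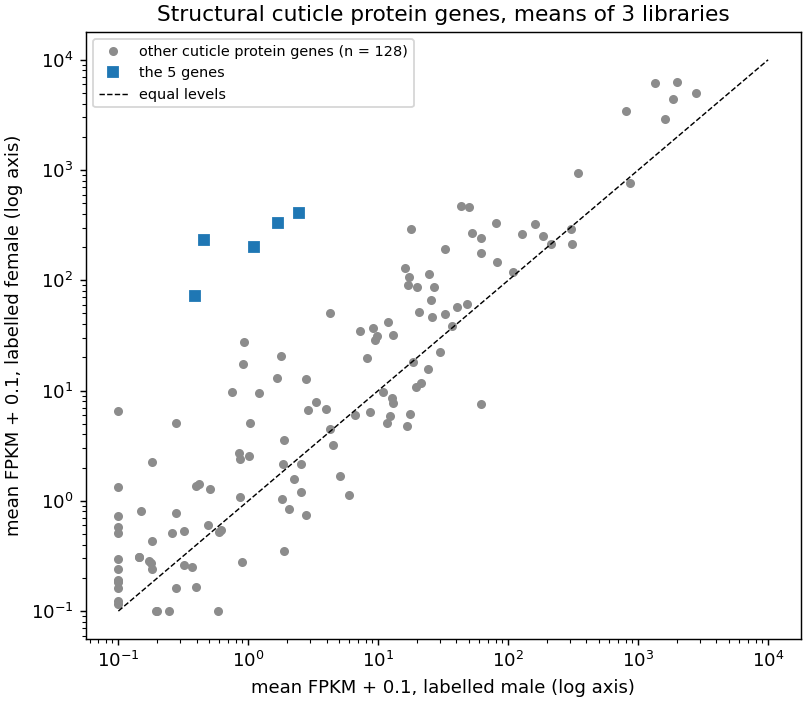
Mean FPKM + 0.1 of 3 female-labelled libraries (y) against that of 3 male-labelled libraries (x), both on log axes, for the 5 genes (blue squares) and the 128 other cuticle protein genes (grey). The 5 squares stand at male-labelled means between 0.287 and 2.35 FPKM and female-labelled means between 71.4 and 405 FPKM, farther above the dashed line of equal levels than any grey point.

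Genes that make, trim and harden cuticle had smaller differences, of at most 0.95 and -1.52 on the log2(FPKM + 1) scale among those that passed. Of 48 tested chitin and tanning genes, 9 were higher under the female label, 17 were lower and 22 did not pass, with a median log2 difference of -0.14. That is 18.8% higher and 35.4% lower, beside 9.03% and 27.8% of all genes tested. Tyrosine hydroxylase (GWHGABGR000528), which makes the DOPA used in tanning, stood at 13365 ± 133 FPKM in female-labelled and 14274 ± 379 FPKM in male-labelled libraries (log2 difference -0.09, limma adjusted p = 0.0117), and its direction turned after rescaling (log2 difference 0.16, limma adjusted p = 0.00206). Obstructor-E-like (GWHGABGR014829), named for a chitin-binding protein, stood at 1515 ± 28.5 FPKM in female-labelled and 1548 ± 29.1 FPKM in male-labelled libraries, and passed only after rescaling (limma adjusted p = 0.414 as deposited, 0.000717 rescaled). GWHGABGR014791, of the same name, stood at 27.1 ± 2.12 FPKM in female-labelled and 13.5 ± 0.896 FPKM in male-labelled libraries (log2 difference 0.95, limma adjusted p = 0.000148). Laccase-2 (GWHGABGR010404), an oxidase of cuticle tanning, stood at 51.1 ± 3.51 FPKM in female-labelled and 34.8 ± 6.8 FPKM in male-labelled libraries (limma adjusted p = 0.0113), and the chitinase gene GWHGABGR012451 at 321 ± 3.18 FPKM in female-labelled and 606 ± 12.5 FPKM in male-labelled libraries (limma adjusted p = 1.51e-07). Dopamine N-acetyltransferase-like (GWHGABGR007968), named for an enzyme that draws dopamine away from melanin, stood at 4.81 ± 2.33 FPKM in female-labelled and 14.8 ± 2.33 FPKM in male-labelled libraries (limma adjusted p = 0.0045). Of 15 tested genes of the moulting hormone cascade, which times cuticle gene expression, 1 was higher, 6 were lower and 8 did not pass, which is 6.67% higher and 40.0% lower beside the same shares of all genes. The most abundant, ecdysone-inducible protein E75 (GWHGABGR010158), stood at 135 ± 4.01 FPKM in female-labelled and 133 ± 0.358 FPKM in male-labelled libraries and did not pass (limma adjusted p = 0.788), though it did after rescaling (log2 difference 0.28, limma adjusted p = 0.00261). The broad-complex gene GWHGABGR003933, a pupal specifier in moths, stood at 7.33 ± 0.89 FPKM in female-labelled and 13.4 ± 1.06 FPKM in male-labelled libraries (limma adjusted p = 0.00216). The higher one, the FTZ-F1 gene GWHGABGR000096, rested on 12 reads in the female-labelled and 2 in the male-labelled libraries, and its call was lost when any 1 of 4 libraries was left out. Another gene with an FTZ-F1 best hit, GWHGABGR000098, was lower (log2 difference -0.76, limma adjusted p = 0.00584, or 0.033 after rescaling). It had 359 reads in the female-labelled and 556 in the male-labelled libraries. After median-of-ratios rescaling, the counts were 12 higher and 7 lower for chitin and tanning genes, and 2 and 2 for the hormone cascade. Of all genes tested, 17.7% were then higher and 14.3% lower, so the lower calls of both lists were near the background. The share of higher calls was above that of all genes for chitin and tanning genes and below it for the hormone cascade. These shares were given no test.

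The 6 genes most like the 5 in level and pattern had no cuticle best hit. Likeness was the distance of log2(FPKM + 1) over the 6 libraries to the mean profile of the 5, which lay at distances of 0.777 to 3.01 from it themselves. That profile holds the difference between labels by which the 5 were chosen, so mainly genes with a like difference can come near. Nothing about the 5 is read from the names of these 6 genes. A putative odorant receptor (GWHGABGR021060) was nearest, at a distance of 0.83, with 263 ± 3.79 FPKM in female-labelled and 0.502 ± 0.279 FPKM in male-labelled libraries. Next came a neuropeptide F receptor-like gene (GWHGABGR018783, distance 2.87, 69.6 ± 7.13 FPKM in female-labelled and 0.548 ± 0.27 FPKM in male-labelled libraries) and an MD-2-related lipid-recognition protein-like gene (GWHGABGR008088, distance 3.31, 88.4 ± 4.68 FPKM in female-labelled and 4.08 ± 0.777 FPKM in male-labelled libraries). They were followed by a hypothetical protein (GWHGABGR000271, distance 3.78), with 2142 reads in the female-labelled and 0 in the male-labelled libraries. A glutathione S-transferase 2-like gene (GWHGABGR016652) at 3.92 and an uncharacterized protein (GWHGABGR015432) at 4.28 closed the list.

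Summed levels of some marker lists differed between the labels. The calls in these short lists stand beside 9.03% higher and 27.8% lower of all genes tested. Markers of the olfactory antenna, 7 in all, summed to 121735 to 126357 FPKM in the female-labelled and 31964 to 33598 FPKM in the male-labelled libraries, mostly through pheromone-binding protein 1, with 4 higher and 2 lower of 7 tested. Hemocyte markers, 10 in all, summed to 15.8 to 18.3 FPKM in the female-labelled and 26 to 30.1 FPKM in the male-labelled libraries. Of 4 tested, 0 were higher and 2 lower, namely hemocytin and a croquemort-like gene. The prophenoloxidase-2 gene GWHGABGR016003 stood at 1.73 ± 0.948 FPKM in female-labelled and 1.59 ± 0.395 FPKM in male-labelled libraries and did not pass (limma adjusted p = 0.973). Fat body markers, 9 in all, summed to 586 to 617 FPKM in the female-labelled and 504 to 525 FPKM in the male-labelled libraries, mostly through apolipophorin-III, with 1 higher and 3 lower of 7 tested. Muscle markers, 19 in all, summed to 50.7 to 63.4 FPKM in the female-labelled and 51.8 to 60.1 FPKM in the male-labelled libraries, with 1 higher and 1 lower of 11 tested. Their part in the difference of the 5 genes was not tested.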

How the data were processed

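The authors deposited FPKM per gene for 6 libraries, with best protein hits. Per the submitters' processing notes, which give no roles, the tools were HISAT2, HTSeq, Trimmomatic and R 3.2.0. Neither a genome build nor an annotation is given in the sources, and no coordinate or sequence is printed. Whole reads, within 0.01 read, were recovered for 16458 of 16458 genes by a search over lengths of at least 90 bases and library totals, which came to 9392242 to 11180175 reads. A length, and its reads, can be too low by a common factor. Among genes above 30 reads, 87.9% of lengths divided by 3, and lengths are therefore called coding lengths. Intervals and floors cover counting error only.

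Genes with a mean of at least 0.5 FPKM (11590) were tested on log2(FPKM + 1) by limma 3.58.1 (R 4.3.3) with a trended prior variance, 2-sided, and Benjamini-Hochberg adjustment over all of them at 0.05. Differences are female-labelled minus male-labelled. The step was also run on simulated data, in which only genes with more reads were changed and no scaling shift was built in. That run does not show how well changes are found in genes of few reads or under a scaling shift, and its outcome is not given here. Alternatives were other scalings, pseudocounts and filters, the replicate block and leaving out each library. The members and the gene lists were chosen with earlier results of these data known, and the marker patterns were trimmed after names and values had been seen. Named genes were the 5, tested genes within 10 identifiers, the 3 most abundant and the 3 largest changes each way in a list (a part of them is printed), the 6 nearest in profile and abundant markers. Genes sharing the name, and the run, were chosen after values were seen.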

Additional observations from a re-analysis of the deposited data

How the results depend on the processing

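Library scaling moved counts the most. Median-of-ratios rescaling shifted the median difference of all genes from -0.23 to -0.02 and called 2040 genes higher and 1652 lower in the female-labelled libraries, against 1047 and 3227 as deposited, and quantile normalization called 1688 and 1636. Lower calls came to 10 and 9 for the other cuticle genes (18 as deposited) and to 1 and 1 for genes near the 5 (3 as deposited) under rescaling and quantile normalization. For chitin and tanning genes rescaling gave 7 lower (17 as deposited). For the hormone cascade it gave 2 higher and 2 lower, quantile normalization gave 1 lower, and a mean of at least 2 FPKM gave 0 higher, against 1 and 6. With a pseudocount of 0.1 FPKM the log2 differences of the 5 genes were 8.39, 7.80, 10.01, 7.83 and 7.44 in order of identifier. The cause was not tested beyond the settings themselves. Leaving out each library in turn gave 0 to 1 higher and 3 to 6 lower for the hormone cascade, with 3 lower without female replicate 1 or without male replicate 1, and the 1 higher call was lost without female replicates 1 or 2 or male replicates 1 or 2. Of 180 alternative values, 156 stayed within 1.5 times the count or within the replicate spread and 24 moved. The replicate number as a block gave 954 higher and 2891 lower genes. Same-numbered libraries did not deviate together (correlations of 0.0051, 0.0059 and -0.0038), and not every library correlated best with its own number, so the numbers do not pair them. Depth limits the male-labelled values of the 5 genes, which rest on 3 to 33 reads each.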
